A study of Mus musculus with 24 samples.

Results

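Border macrophages, the resident macrophages of the meninges and of the spaces around brain vessels, were followed in injured mouse brain through 9 marker genes: Mrc1, Pf4, Lyve1, Cbr2, Folr2, Stab1, Wfdc17, Sepp1 and Lyz2. The genes were taken by symbol from the 36333 genes of the expression table, and all 9 had a row in it. They are known markers that were chosen by measured values as well, namely their lower TPM in the PLX3397 and PLX3397+Anakinra mice. Those losses are therefore described here without a test, and the injury comparison and Anakinra alone, which share the vehicle mice with them, were the comparisons tested. Such a choice favours genes that were high in these vehicle mice by chance, which can enlarge the injury rises and the falls with Anakinra. The size of this effect was not tested. A gene was tested where its average across all 24 libraries reached 0.5 TPM, as it did for all 9.

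Border macrophages lie outside the neural tissue proper, along the meninges, the perivascular spaces and the choroid plexus, where they sample fluid, clear debris and present antigen. Like microglia they depend on signalling through the CSF1 receptor. Several of their usual marker genes encode receptors for uptake, among them the mannose receptor, a hyaluronan receptor, a folate receptor and a stabilin. None of these genes belongs to this cell type alone, since monocyte-derived macrophages that enter an injured brain express many of them, and lysozyme is made by myeloid cells in general.

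The samples were 24 libraries of lesional and perilesional brain tissue from 24 male mice aged 12 to 16 weeks, collected at 5 dpi (days post injury). The age is that of the labels, and the study's methods give a narrower range. The labels give the strain as C57BL6N and the tissue as cortex, whereas the study's methods name C57BL/6JRj mice and a quadrant of the brain that takes in striatum, thalamus and dorsal hippocampus beside the cortex. Traumatic brain injury (TBI) was made by controlled cortical impact (CCI) in 4 groups of 5 mice, and 4 sham mice had anaesthesia and a skin incision, with neither craniotomy nor impact. PLX3397, an inhibitor of the CSF1 receptor, was mixed into chow at 290 mg/kg and offered from 90 min after CCI. Anakinra, a blocker of the interleukin-1 receptor, was injected subcutaneously at 100 mg/kg at 5 min, 24 h, 48 h and 72 h. The groups with TBI received vehicle, Anakinra, PLX3397 or PLX3397+Anakinra, and no mouse carried a transgene or mutation according to the labels. By the study's methods the sham mice received vehicle too, and vehicle chow or saline stood in for a drug that was not given. Both drugs were systemic, so that neither acts on border macrophages only. Every vehicle mouse, and no other mouse, had an animal number ending in the letter B. What the letter stands for is not given in the sources used here, and if it marks a batch, that batch and vehicle treatment cannot be told apart.

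Expression is given as TPM (a relative level per transcript length that sums to 1000000 in each library). The study's methods add that the software calls this unit CPM, a name also used for values not scaled by length. Levels of different genes, including their order and the size of their ratios below, can be compared only if length was scaled. No 2 libraries held identical values, and between 22160 and 23249 genes were above 0 in a library. In the sham brain Sepp1 was the most abundant of the 9 genes at 296 ± 46.6 TPM (SD, n = 4), followed by Lyz2 at 17.1 ± 3.57 TPM and Stab1 at 8.58 ± 1.34 TPM. The other 6 had sham means between 0.89 TPM (Folr2) and 3.66 TPM (Pf4). In vehicle mice the order changed, and Lyz2 led with 2072 ± 523 TPM (SD, n = 5) before Sepp1 at 644 ± 25.5 TPM. Mrc1 and Lyve1, the markers by which border macrophages are often stained, were the least abundant in vehicle mice, at 6.02 ± 1.20 and 0.53 ± 0.31 TPM.

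**Figure D1:**
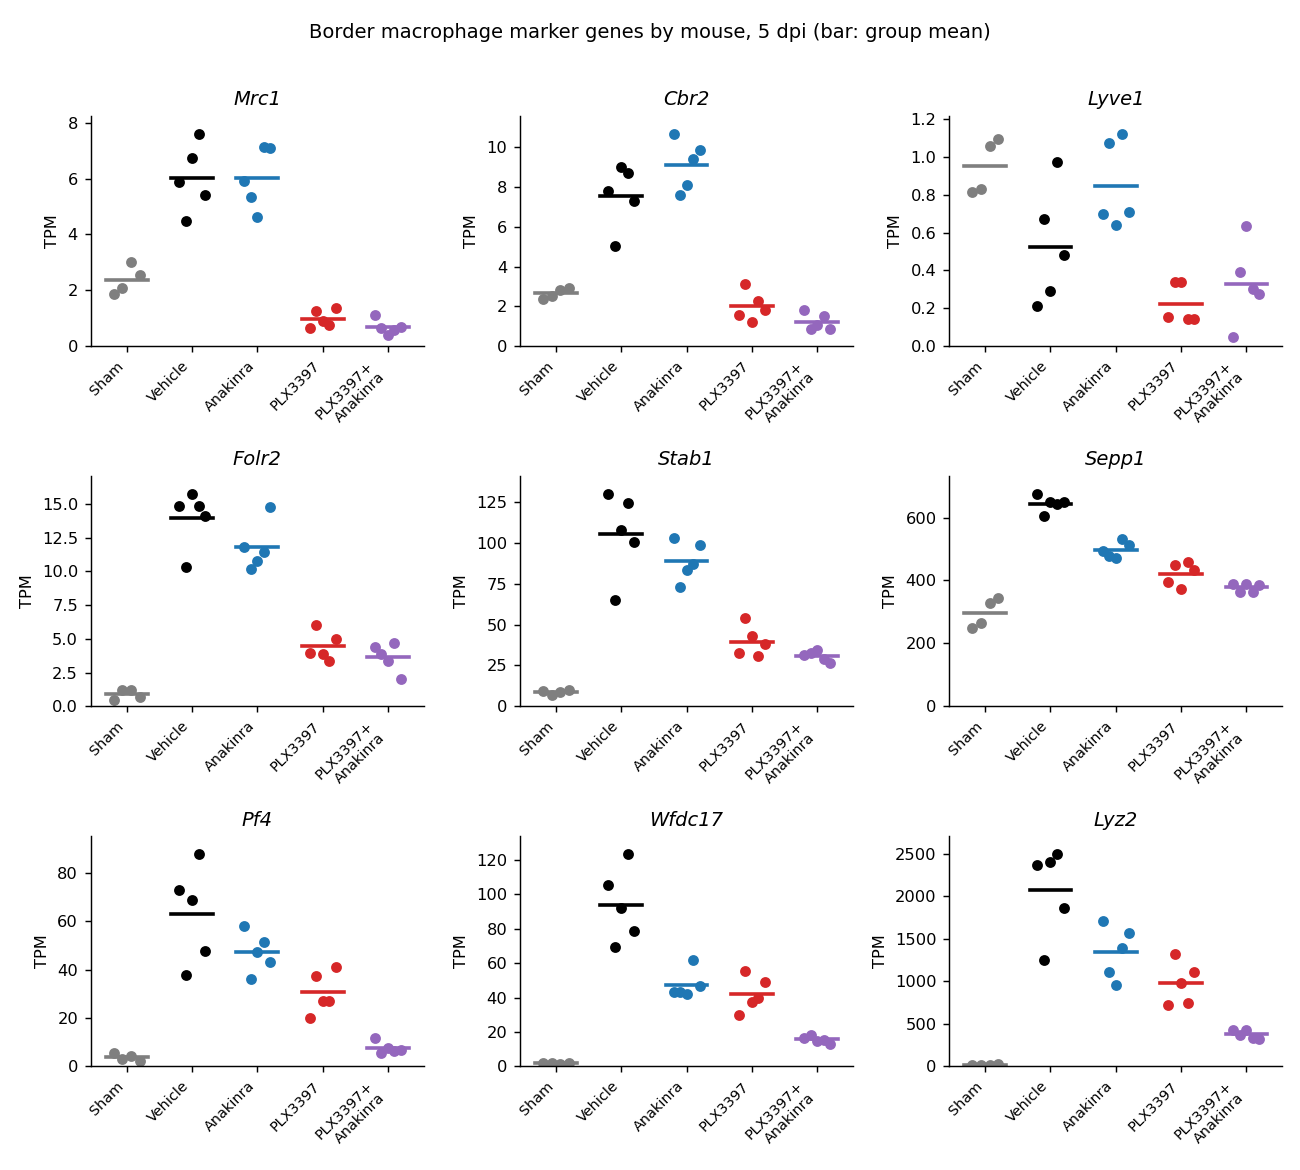
TPM (linear axis from 0) of the 9 marker genes in each of the 24 mice, by group, with points for mice and bars for group means. In Mrc1 both PLX3397 groups lie under all sham mice. In Cbr2 the PLX3397+Anakinra mice do so, and the PLX3397 mice spread around and below the sham range. In Pf4, Wfdc17 and Lyz2 the PLX3397+Anakinra mice lie under all PLX3397 mice.

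The first comparison asked which of these genes differed after TBI, as vehicle against sham. It covers craniotomy and impact together, both of which are meant here by the injury. Of the 9 genes, 8 rose and 1 fell (limma, adjusted p below 0.05), where 26.6% of all 17267 genes tested rose and 27.7% fell. The vehicle and sham mice did not overlap in those 8 genes, and 21.7% of all genes were higher without overlap. The rises ranged from a log2 difference of 1.05 ± 0.15 (SE) for Mrc1 to 6.82 ± 0.20 for Lyz2, with a median of 3.00 over the 9 genes against -0.01 over all genes tested. All log2 differences are on the log2(TPM + 1) scale, which understates the change of low genes. In whole tissue more cells of a type and more RNA per cell cannot be told apart, nor can fewer cells and less RNA per cell.

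Mrc1 encodes the mannose receptor CD206, an endocytic receptor for glycoproteins. It was 1.87, 2.07, 3.01 and 2.55 TPM in the sham mice and 5.88, 4.48, 6.74, 7.60 and 5.41 TPM in the vehicle mice, a log2 rise of 1.05 ± 0.15 (adjusted p = 1.5e-06). The Anakinra mice had 5.90, 5.34, 4.64, 7.13 and 7.10 TPM, all within the range of the vehicle mice (log2 difference 0.00 ± 0.14, adjusted p = 0.997). PLX3397 mice had 0.65, 1.24, 0.90, 0.77 and 1.38 TPM, and PLX3397+Anakinra mice 1.12, 0.65, 0.39, 0.56 and 0.67 TPM. Both groups with PLX3397 lay under every sham mouse and overlapped with each other. The PLX3397 mean was 16.4% of the vehicle mean and 41.6% of the sham mean, and the mean with both drugs was 11.3% of vehicle. From vehicle the log2 difference was -1.82 ± 0.14 with PLX3397 and -2.06 ± 0.14 with both drugs, and between the 2 drug groups it was -0.24 ± 0.14.

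Cbr2, a carbonyl reductase of border macrophages, had the pattern most like Mrc1 among the members (Pearson r = 0.96 of log2(TPM + 1) over the 24 libraries, which share the 5 groups). Sham mice had 2.36, 2.52, 2.81 and 2.90 TPM and vehicle mice 7.79, 5.01, 8.98, 8.71 and 7.28 TPM, a log2 rise of 1.21 ± 0.16 (adjusted p = 7.2e-07). With Anakinra the values were 10.67, 7.61, 8.12, 9.40 and 9.84 TPM, the highest group mean of this gene, but the mice overlapped with vehicle (log2 difference 0.26 ± 0.15, adjusted p = 0.5035). PLX3397 mice had 1.55, 3.12, 1.23, 2.29 and 1.82 TPM, spread around and below the sham range, and the mice with both drugs 1.81, 0.88, 1.07, 1.53 and 0.84 TPM, all below it. Means were 26.5% and 16.2% of vehicle. The difference between both drugs and PLX3397 alone was -0.42 ± 0.15 on the log2 scale, with overlap between the groups.

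Lyve1, the hyaluronan receptor that border macrophages share with lymphatic endothelium, was the only one of the 9 genes that was lower after the injury. Sham mice had 0.82, 0.83, 1.06 and 1.10 TPM and vehicle mice 0.21, 0.67, 0.29, 0.97 and 0.48 TPM, with overlap between the groups. The log2 difference of -0.37 ± 0.14 passed the test (adjusted p = 0.0237). Anakinra mice had 0.70, 1.08, 0.64, 1.12 and 0.71 TPM, overlapping with both groups, and the difference from vehicle of 0.29 ± 0.13 on the log2 scale did not pass (adjusted p = 0.352). PLX3397 mice had 0.15, 0.34, 0.34, 0.14 and 0.14 TPM and mice with both drugs 0.05, 0.39, 0.63, 0.30 and 0.27 TPM. Both groups lay under all sham mice and overlapped with vehicle and with each other. The number of reads behind values this low is unknown here. The injury call was lost without any 1 of 4 mice (sham J15 or J16, vehicle J01B or J18B), where the adjusted p was 0.0594, 0.0664, 0.0745 and 0.067, with a pseudocount of 0.1 (0.0584), with only the compared groups in the fit (0.0516) and with the animal number as a block (0.106).

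Folr2 encodes folate receptor beta and Stab1 encodes stabilin-1, a scavenger receptor. Folr2 was 0.45, 1.21, 1.20 and 0.70 TPM in sham mice and 14.83, 10.35, 15.76, 14.85 and 14.15 TPM in vehicle mice, a log2 rise of 3.00 ± 0.17 (adjusted p = 2.2e-13). With Anakinra it was 11.79, 10.18, 10.81, 11.42 and 14.81 TPM, with PLX3397 3.97, 6.04, 3.85, 3.38 and 5.00 TPM, and with both drugs 4.41, 3.84, 3.33, 4.66 and 2.01 TPM. Anakinra mice overlapped with vehicle, both groups with PLX3397 lay between sham and vehicle without touching either, and these 2 groups overlapped with each other. PLX3397 left 31.8% of the vehicle mean and both drugs 26.1%. The log2 differences from vehicle were -0.22 ± 0.16 with Anakinra (adjusted p = 0.588), -1.47 ± 0.16 with PLX3397 and -1.71 ± 0.16 with both drugs.

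Stab1 followed Folr2 closely (r = 0.97 over the 24 libraries), at a higher level. It was 9.07, 6.70, 8.69 and 9.85 TPM in sham mice and 130.19, 65.06, 108.31, 124.88 and 100.68 TPM in vehicle mice, a log2 rise of 3.45 ± 0.16 (adjusted p = 9.4e-15). Anakinra mice had 103.23, 73.27, 83.57, 87.36 and 98.98 TPM, PLX3397 mice 32.44, 54.27, 42.94, 30.61 and 37.92 TPM, and mice with both drugs 31.53, 32.71, 34.46, 29.15 and 26.55 TPM. As in Folr2, the 2 groups with PLX3397 overlapped with each other and with neither sham nor vehicle. Means were 37.5% of vehicle with PLX3397 and 29.2% with both drugs, and the difference from vehicle with Anakinra, -0.21 ± 0.16 on the log2 scale, did not pass (adjusted p = 0.593). Its 2 differences from vehicle were -1.38 ± 0.16 and -1.71 ± 0.16.

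Sepp1, named Selenop in RefSeq, encodes selenoprotein P, a secreted carrier of selenium. It had the highest sham level of the 9 genes. The values were 247.63, 265.86, 327.08 and 344.10 TPM in sham mice and 675.36, 604.73, 650.70, 641.91 and 649.40 TPM in vehicle mice, a log2 rise of 1.13 ± 0.07 (adjusted p = 3.6e-12). With Anakinra they were 495.30, 478.69, 471.31, 531.19 and 514.31 TPM, all below vehicle, a log2 fall of 0.37 ± 0.07 (adjusted p = 0.0351). PLX3397 mice had 394.67, 450.73, 371.92, 459.55 and 432.97 TPM and mice with both drugs 388.30, 363.26, 387.78, 364.21 and 386.49 TPM. The 2 groups with PLX3397 overlapped with each other and stayed above every sham mouse. Means were 65.5% of vehicle with PLX3397 and 58.7% with both drugs. Its log2 differences from vehicle were -0.61 ± 0.07 with PLX3397 and -0.77 ± 0.07 with both drugs.

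Pf4 encodes platelet factor 4 (CXCL4), a chemokine stored in platelets and also transcribed in border macrophages. It was 5.31, 3.00, 4.26 and 2.06 TPM in sham mice and 73.04, 37.73, 68.85, 87.87 and 47.81 TPM in vehicle mice, a log2 rise of 3.77 ± 0.24 (adjusted p = 1.6e-12). Anakinra mice had 58.26, 36.28, 47.24, 51.43 and 43.07 TPM and PLX3397 mice 20.08, 37.29, 27.15, 27.08 and 41.27 TPM. Either drug alone overlapped with vehicle, PLX3397 only through vehicle mouse J17B. With both drugs Pf4 was 11.56, 5.45, 7.48, 6.43 and 6.83 TPM, below every PLX3397 mouse and above every sham mouse. The means were 48.5% of vehicle with PLX3397 and 12.0% with both drugs, which was 24.7% of the PLX3397 mean. On the log2 scale the differences from vehicle were -0.36 ± 0.22 with Anakinra (adjusted p = 0.522), -1.0 ± 0.22 with PLX3397 and -2.88 ± 0.22 with both drugs, and both drugs differed from PLX3397 by -1.88 ± 0.22.

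Wfdc17 encodes a small secreted protein of the whey acidic protein family, known from activated macrophages and microglia. It was nearly silent in sham mice, at 1.82, 2.03, 1.33 and 1.88 TPM, against 105.37, 69.51, 92.24, 123.54 and 78.95 TPM in vehicle mice, a log2 rise of 5.08 ± 0.16 (adjusted p = 5.2e-18). Anakinra alone gave 43.04, 43.14, 41.92, 62.14 and 46.92 TPM, all below vehicle, a log2 fall of 0.96 ± 0.15 (adjusted p = 0.0189). PLX3397 mice had 29.98, 55.20, 37.52, 39.48 and 48.82 TPM, overlapping with the Anakinra mice. With both drugs the values were 16.60, 18.03, 14.94, 15.58 and 12.84 TPM, below all mice given either drug alone. The means were 50.5% of vehicle with Anakinra, 44.9% with PLX3397 and 16.6% with both drugs. Both drugs differed from vehicle by -2.49 ± 0.15 and from PLX3397 alone by -1.36 ± 0.15 on the log2 scale.

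Lyz2 encodes lysozyme M, a bactericidal enzyme of myeloid cells. It was 16.80, 13.09, 16.58 and 21.76 TPM in sham mice and 2360.32, 1247.60, 2401.68, 2494.41 and 1857.13 TPM in vehicle mice, a log2 rise of 6.82 ± 0.20 (adjusted p = 1.9e-18) and a mean 121-fold that of sham. Anakinra mice had 1706.99, 1108.52, 959.65, 1390.61 and 1560.84 TPM and PLX3397 mice 721.64, 1315.50, 975.93, 746.10 and 1111.88 TPM. Either drug alone overlapped with vehicle only through vehicle mouse J17B, the lowest of its group, and without it neither did. With both drugs Lyz2 was 430.30, 369.63, 425.80, 335.93 and 326.55 TPM, below all other TBI mice and well above sham. Means were 64.9% of vehicle with Anakinra, 47.0% with PLX3397 and 18.2% with both drugs. The log2 differences from vehicle were -0.61 ± 0.19 with Anakinra (adjusted p = 0.162), -1.08 ± 0.19 with PLX3397 and -2.42 ± 0.19 with both drugs, and both drugs differed from PLX3397 by -1.34 ± 0.19.

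Anakinra alone was thus followed by a fall in 2 of the 9 genes, Wfdc17 and Sepp1, and by no rise (limma), where 0.116% of all genes passed in either direction. Those 2 genes were also the members without overlap between Anakinra and vehicle, against 1.42% of all genes that were lower without overlap. Without vehicle mouse J17B there were 3, with Lyz2 added. Wfdc17 and Sepp1 had been seen in earlier results of these data. The same vehicle mice entered the choice of the 9 genes, so this test is not independent of that choice. The Sepp1 call did not survive leaving out any 1 Anakinra mouse or vehicle mouse J01B or J20B, with adjusted p between 0.0193 and 0.244 over the alternatives, and that of Wfdc17 lay between 0.00445 and 0.0652.

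The second comparison set the size of the loss with PLX3397 beside that with both drugs. Without overlap with vehicle, 6 of the 9 genes were lower with PLX3397 (4.91% of all genes tested) and 8 with both drugs (6.62%). Pf4 and Lyz2 were the members that overlapped with vehicle under PLX3397 and not under both drugs, and Lyve1 overlapped in both. The first 2 overlaps rest on vehicle mouse J17B: without it, 8 genes were lower without overlap with PLX3397 and 8 with both drugs, so that the counts no longer differ. Left out singly, no other mouse brought the PLX3397 count above 7. These counts without single mice were added after the data were seen. Between both drugs and PLX3397 alone, Pf4, Wfdc17 and Lyz2 were lower without overlap, as were 0.764% of all genes. The genes were chosen with these comparisons in view, so nothing is read from these counts. All 3 comparisons share mice, since vehicle serves in the first 2 and each drug group in another pair. The median over the 9 genes was -1.14 with PLX3397, -1.94 with both drugs and -0.33 for both drugs against PLX3397, beside 0.01 over all genes tested in each of the 3 comparisons. Against Anakinra alone, all 9 genes were lower without overlap with both drugs (7.26% of all genes), at log2 differences between -0.40 for Sepp1 and -2.52 for Pf4. In Lyve1 this rests on 0.633 TPM in the highest mouse with both drugs against 0.638 TPM in the lowest Anakinra mouse. Set against sham, 2 genes were lower and 6 higher without overlap with PLX3397 (17.6% and 18.7% of all genes), and 3 were lower and 6 higher with both drugs (14% and 16.9%).

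**Figure D2:**
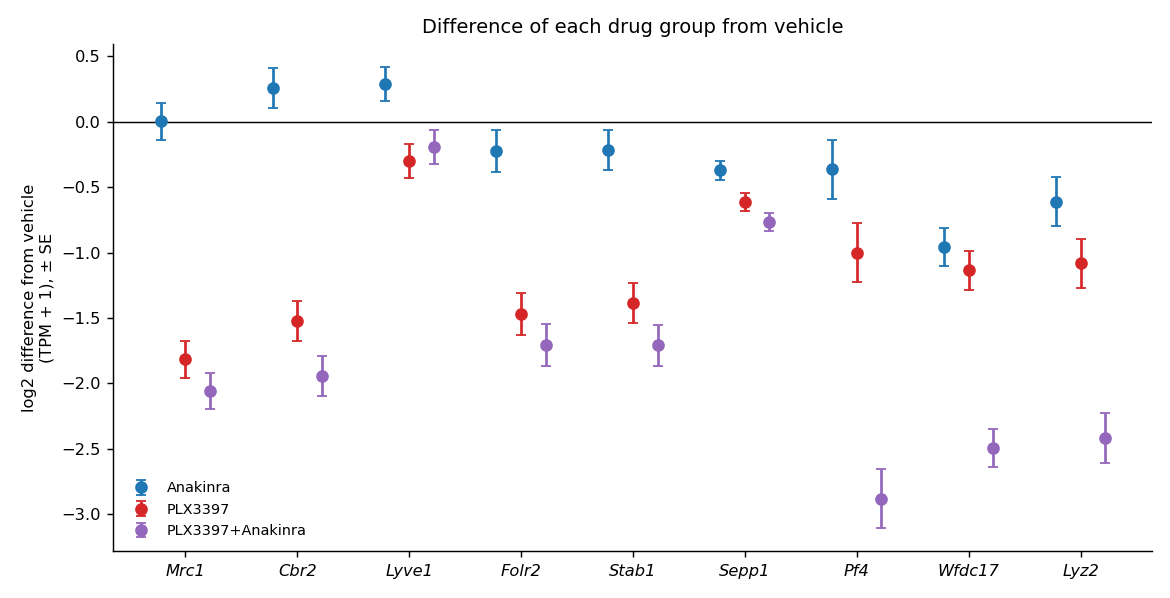
Log2 difference from vehicle (log2 of TPM + 1, points with SE from the fit) of Anakinra, PLX3397 and PLX3397+Anakinra mice, 5 per group, for the 9 marker genes. In Mrc1, Cbr2, Folr2 and Stab1 the points of the 2 groups with PLX3397 lie within 0.42 of each other (with a pseudocount of 0.1, Mrc1 0.50 and Cbr2 0.66 apart), and in Pf4, Wfdc17 and Lyz2 they are 1.34 to 1.88 apart.

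Measured against the injury response, the 8 genes that rose differed in how much of the rise was left. For each mouse the sham mean was subtracted and the rest divided by the mean difference between vehicle and sham, so that 0 is the sham mean and 100 the vehicle mean. With PLX3397, Mrc1 stood at -38.0 ± 8.58% (SD, n = 5) and Cbr2 at -13.1 ± 14.97%, below sham on average. The other 6 genes kept between 27.2 ± 8.15% (Folr2) and 46.6 ± 12.2% (Lyz2) of their rise. Adding Anakinra moved Folr2 to 21.1 ± 8.03%, Stab1 from 31.9 ± 9.77% to 22.9 ± 3.18% and Sepp1 from 36.1 ± 10.8% to 23.5 ± 3.75%, with overlap between the 2 groups in each. It moved Pf4 from 45.3 ± 14.4% to 6.55 ± 3.97%, Wfdc17 from 43.9 ± 10.7% to 15.01 ± 2.10% and Lyz2 to 17.5 ± 2.37%, with no mouse of 1 group in the range of the other. Mrc1 and Cbr2 reached -46.5 ± 7.37% and -28.9 ± 8.67% with both drugs.

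**Figure D3:**
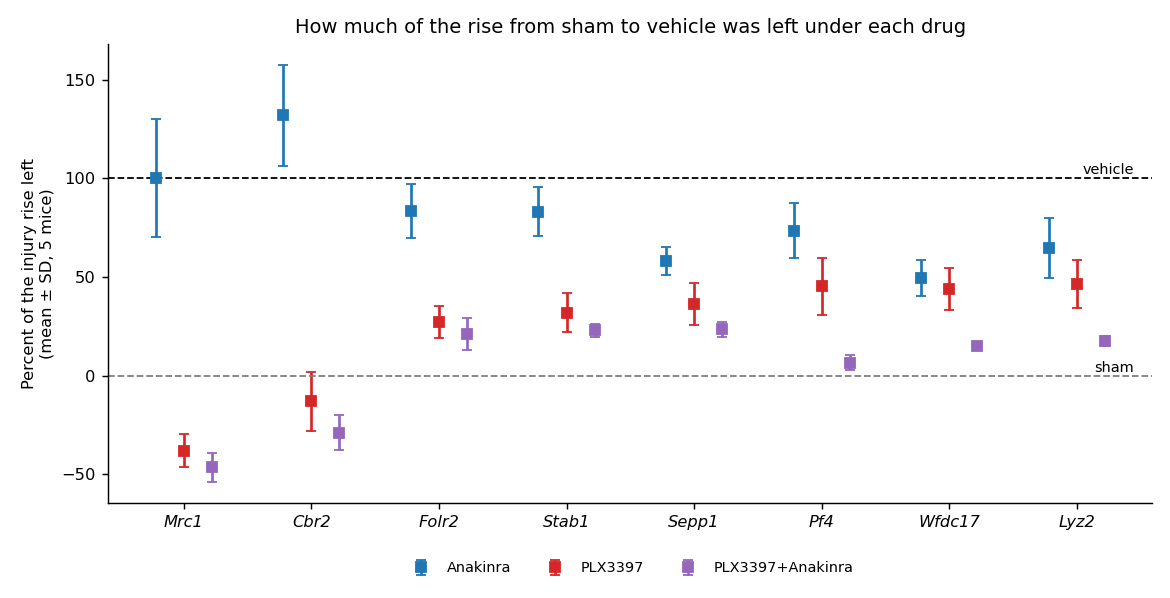
Percent of the rise from sham to vehicle that was left in Anakinra, PLX3397 and PLX3397+Anakinra mice (mean and SD of 5 mice) for the 8 marker genes that rose, with dashed lines at the sham mean (0) and the vehicle mean (100). Mrc1 and Cbr2 lie below 0 in both groups with PLX3397, and Pf4 at 6.55% with both drugs is the closest to the sham line among the 6 genes above it.

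The ratios between members differed between the groups. The Pf4 level was 1.63 ± 0.86 times the Mrc1 level in sham mice, 10.3 ± 1.72 times in vehicle mice and 8.03 ± 1.88 times in Anakinra mice. It reached 31.3 ± 2.31 times with PLX3397, where the lowest mouse had a ratio of 29.9, and was 11.9 ± 4.27 times with both drugs, where the highest had 19.3. Each PLX3397 mouse thus had a Pf4 to Mrc1 ratio above that of every mouse of the other groups, and the mice with both drugs overlapped with vehicle. The Lyz2 to Mrc1 ratio was 342 ± 44.7 in vehicle mice, 1007 ± 124 with PLX3397 and 627 ± 276 with both drugs. The Cbr2 to Mrc1 ratio differed less, from 1.14 ± 0.15 in sham and 1.25 ± 0.11 in vehicle mice to 2.11 ± 0.74 and 1.94 ± 0.74 in the 2 groups with PLX3397.

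Taken as the excess of the change with both drugs over the sum of the changes with each drug, Pf4 had the lowest value of the 9 genes, -1.52 ± 0.32 (SE) on the log2 scale. Lyz2 followed with -0.73 ± 0.27 and Cbr2 with -0.68 ± 0.22, and Wfdc17 was at -0.40 ± 0.21. Mrc1 was at -0.25 ± 0.20 and Lyve1 at -0.18 ± 0.18. Folr2 at -0.02 ± 0.23 and Stab1 at -0.11 ± 0.22 lay near 0, and Sepp1 was at 0.22 ± 0.10. With a pseudocount of 0.1, Cbr2 differed by -1.91 between PLX3397 and vehicle and by -2.85 between both drugs and Anakinra. Its place in this order therefore depends on that setting. No gene of the 17267 passed a test of this excess after adjustment in limma (smallest adjusted p = 0.153), and 1395 had an unadjusted p below 0.05. The 9 genes were chosen by values that enter this excess, so nothing is read from that test for them. Their values stand as a description.

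The members lie on separate chromosomes or far apart, and the sequence upstream of their start sites was read for those with an entry in the RefSeq promoter table of GRCm38.p6. The 250 bases before the start site are shown for Mrc1 and Cbr2, which were near or below sham with PLX3397 alone, and for Pf4 and Lyz2, which were much lower with both drugs than with PLX3397. Capitals mark GAGGAA (a core recognised by PU.1, the myeloid lineage factor), TGCTGA (a half-site of MAF factors) and TTGCNNAA (a C/EBP-like site), each searched on both strands, so that TTCCTC is GAGGAA on the other strand. No 2 matches overlapped.
Mrc1 (chr2:14229164-14229413, plus strand): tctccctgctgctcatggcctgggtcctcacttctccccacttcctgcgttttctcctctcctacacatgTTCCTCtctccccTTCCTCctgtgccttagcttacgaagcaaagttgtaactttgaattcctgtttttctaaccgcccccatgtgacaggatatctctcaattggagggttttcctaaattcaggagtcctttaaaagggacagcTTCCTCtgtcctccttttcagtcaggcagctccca
Cbr2 (chr11:120732022-120732271, minus strand): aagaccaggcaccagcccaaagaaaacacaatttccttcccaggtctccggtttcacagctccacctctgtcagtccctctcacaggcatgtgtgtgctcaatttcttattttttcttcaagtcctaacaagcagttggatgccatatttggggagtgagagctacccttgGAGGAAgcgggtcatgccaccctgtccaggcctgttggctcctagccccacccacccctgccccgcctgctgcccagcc
Pf4 (chr5:90772185-90772434, plus strand): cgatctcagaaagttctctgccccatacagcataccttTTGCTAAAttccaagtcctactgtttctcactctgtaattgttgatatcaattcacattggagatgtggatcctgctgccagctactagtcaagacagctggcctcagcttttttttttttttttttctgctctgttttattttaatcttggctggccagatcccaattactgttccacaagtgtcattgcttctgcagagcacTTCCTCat
Lyz2 (chr10:117282273-117282522, minus strand): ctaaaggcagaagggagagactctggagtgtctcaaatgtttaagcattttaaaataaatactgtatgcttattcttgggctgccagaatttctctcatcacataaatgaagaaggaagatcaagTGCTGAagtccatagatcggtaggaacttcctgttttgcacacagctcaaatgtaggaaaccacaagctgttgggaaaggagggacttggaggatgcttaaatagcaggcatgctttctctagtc

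Of the 8 members with an entry, 6 held GAGGAA within these 250 bases, namely Mrc1 with 3 matches and Pf4, Cbr2, Stab1, Wfdc17 and Sepp1, whose overlapping start sites share 1 match. Counted by start site, 7 of 11 held it, and the same letters occurred in 23.3% of the 32851 mouse start sites, each searched over the same 250 bases. TGCTGA was found in Folr2, Stab1 and Lyz2, at 4 of the 11 start sites (16.1% of all), and TTGCNNAA in Pf4 at 1 (9.56%). Mrc1 and Pf4, whose losses differed in pattern, both held GAGGAA. In Pf4 the match starts 8 bases before the start site, in Mrc1 the nearest starts 35 bases before it, and in Cbr2 it starts 79 bases before it. A match of letters is a description, and no binding was measured in these samples.

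The gene bodies are placed by RefSeq (GRCm38.p6) at chr2:14229414-14332023 for Mrc1, chr5:90772435-90773383 for Pf4, chr7:110850607-110862953 for Lyve1, chr11:120729485-120732025 for Cbr2 and chr7:101839988-101857190 for Folr2. Stab1 lies at chr14:31139017-31168651, Wfdc17 at chr11:83704056-83706269, Sepp1 at chr15:3270767-3280510 and Lyz2 at chr10:117277541-117282272. Stab1 overlaps Nt5dc2 and Gm52148, Sepp1 overlaps Ccdc152, Folr2 overlaps Gm10602, and Mrc1 holds the microRNA gene Mir511. The sources do not say whether strand was used in counting, so reads of such overlaps cannot be told apart. The neighbour Lyz1 is a near copy of Lyz2, with 425 identical bases over 492 aligned positions of their longest reading frames (86.4%). The Lyz1 frame has 447 bases and the Lyz2 frame 492, and positions without a partner count as differences in that share. Lyz1 was at 0 in all sham mice and reached 1.40 TPM at most in vehicle mice, so that nearly all TPM of the pair was assigned to Lyz2. Lyz1 averaged 0.50 ± 0.18 TPM in PLX3397 mice and 0.10 ± 0.10 TPM in mice given both drugs, an order like that of Lyz2, and how reads were split between the 2 genes is not given in the sources used here.

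Of 8 paralogs of the members, 5 were high enough to be tested. None passed with PLX3397 against vehicle or with both drugs against PLX3397 (limma, none with an unadjusted p below 0.05 in either comparison). Folr1, the folate receptor of choroid plexus, was 20.1 ± 3.13 TPM in vehicle mice and 20.6 ± 3.86 TPM in PLX3397 mice. Mrc2 was 11.1 ± 3.78 and 13.7 ± 3.26 TPM, and Wfdc18 4.11 ± 1.64 and 5.26 ± 1.03 TPM. Dcxr, a relative of Cbr2, rose with the injury (1.02 on the log2 scale) and fell by 0.35 with both drugs. Ppbp, a platelet chemokine and neighbour of Pf4 in its family, rose by 0.72 with the injury to 0.966 ± 0.605 TPM and was 0.748 ± 0.477 TPM with PLX3397. Stab2, Wfdc21 and Lyz1 stayed under the filter. Among 8 genes for partners that bind the members' products or carry the same ligand, 7 were tested. Cd44, another hyaluronan receptor, rose by 3.16 with the injury and fell by 0.40 with both drugs, and the hyaluronan synthase Has2 and the folate transporter Slc46a1 rose by 0.95 and 0.24. Lrp8, a receptor for selenoprotein P, and the folate carrier Slc19a1 each fell by 0.20 with the injury, and Has1 and Has3 passed in none of the comparisons, while Cxcr3 was not tested.

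The members were then set beside 20 further genes known from border macrophages. Of these, 14 reached the filter, and Cd209f, Cd209a, Ccl24, Mgl2, Pla2g2d and Timd4 did not. After injury 13 of the 14 rose, led by Ms4a7 and F13a1 with log2 rises of 3.45 and 3.32, and Cd163, the haemoglobin scavenger receptor, was the one that did not pass (0.19 ± 0.11, adjusted p = 0.146). With PLX3397, 12 of the 14 fell (6.66% of all genes fell), and with both drugs all 14 fell (9.6%), though under the call rule of the study (unadjusted p below 0.05, a ratio above 2 and a difference above 4 TPM) these counts were 3 and 5. The 2 that did not pass with PLX3397 were Clec4n, a fungal pattern receptor, and Tgfbi, a matrix protein. Cd163 was 1.15 ± 0.232 TPM in sham, 1.45 ± 0.223 in vehicle, 0.305 ± 0.111 with PLX3397 and 0.308 ± 0.122 TPM with both drugs, below every sham mouse in both, as Mrc1 was. Siglec1, the sialic acid receptor CD169, went from 7.26 ± 1.33 TPM in vehicle mice to 2.25 ± 0.79 and 1.56 ± 0.49 TPM, with sham at 0.23 ± 0.02 TPM.

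Among these genes 2 of 14 fell further with both drugs than with PLX3397 alone (0.145% of all genes did), and 8 had an unadjusted p below 0.05. F13a1, the A subunit of coagulation factor XIII, was 25.5 ± 7.64 TPM in vehicle mice, 12.2 ± 3.16 with PLX3397 and 3.57 ± 0.56 TPM with both drugs, a further log2 fall of 1.5. Ms4a7, a membrane-spanning gene of border and recruited macrophages, was 16.4 ± 3.19, 6.44 ± 2.28 and 2.11 ± 0.84 TPM, a further log2 fall of 1.25. The Ms4a7 call (adjusted p = 0.00528) was lost with only the compared groups in the fit (0.0647) and with the animal number as a block (0.0714), whereas F13a1 stayed below 0.05 in limma under all settings run. These 2 genes had levels in the order seen for Pf4 and Lyz2. Anakinra alone changed none of the 14 (limma, 3 with an unadjusted p below 0.05), and the excess of the combined change over the sum was below 0 in 10 of the 14 with 5 at an unadjusted p below 0.05 and a smallest adjusted p of 0.312, for Clec4n. The summed level of the 20 genes was 65.0 to 70.1 TPM in sham mice, 186 to 309 in vehicle and 223 to 263 with Anakinra. It was 127 to 184 with PLX3397 and 117 to 136 TPM with both drugs. This sum is carried by the more abundant genes of the list. Of the 20 genes, 6 averaged below 1 TPM in vehicle mice, 7 with PLX3397 and 9 with both drugs. In each group with PLX3397, 1 gene was at 0 in all mice. The sum therefore does not show the course of low genes such as Cd163.

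**Figure D4:**
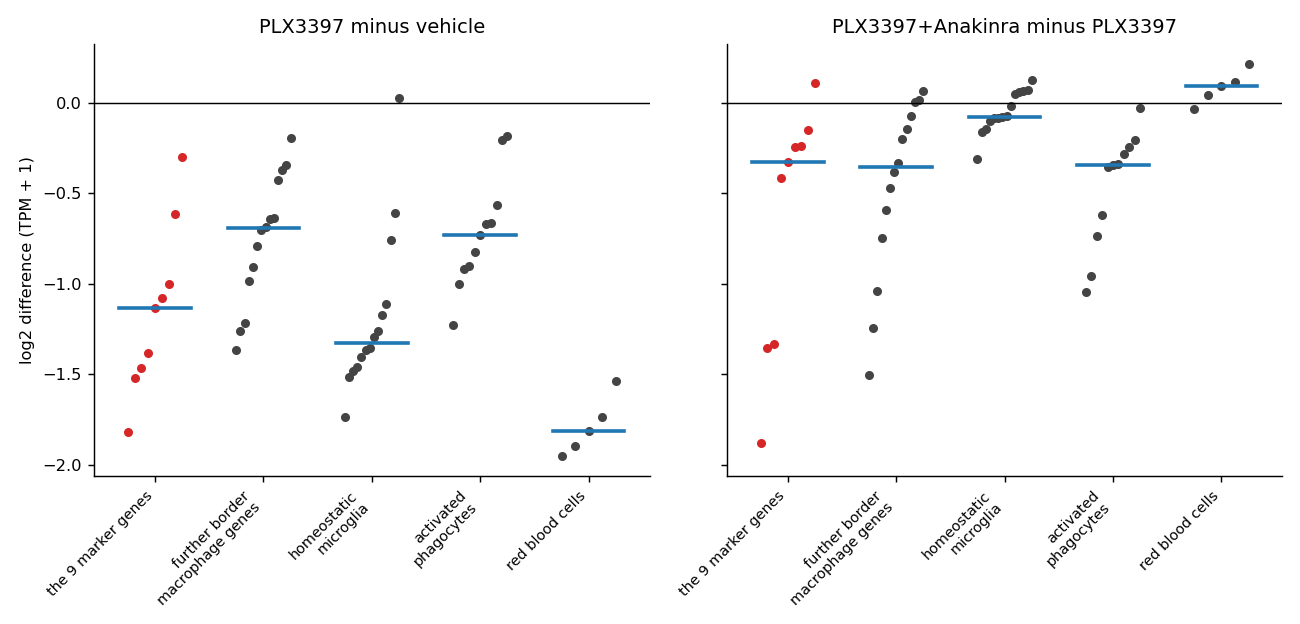
Log2 differences (log2 of TPM + 1) of single genes in 5 gene lists for PLX3397 minus vehicle (left) and PLX3397+Anakinra minus PLX3397 (right), with 1 point per gene in order of value and a blue bar at the median of the list. The red points are the 9 marker genes, whose median is -1.14 on the left and -0.33 on the right, and homeostatic microglial genes have medians of -1.33 and -0.08.

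Microglia, the macrophages within the neural tissue, carry the same receptor, and their genes were set beside the members. Of 14 homeostatic microglial genes all rose with the injury, and 13 fell with PLX3397 and 13 with both drugs. P2ry12 and Cx3cr1 fell by 1.74 and 1.36 with PLX3397 and by 1.68 and 1.44 with both drugs, and Sparc, which vessels and astrocytes express as well, was the gene that did not pass. None of the 14 passed between both drugs and PLX3397 (limma, 2 with an unadjusted p below 0.05, both lower). Csf1r itself, which these macrophages share, was 61.2 ± 0.86 TPM in sham, 226 ± 22.9 in vehicle, 221 ± 8.53 with Anakinra, 89.1 ± 18.9 with PLX3397 and 77.5 ± 5.67 TPM with both drugs. The Mrc1 to Csf1r ratio was 0.0265 ± 0.00396 in vehicle mice, 0.0112 ± 0.0032 with PLX3397 and 0.00865 ± 0.00298 with both drugs. The Stab1 to Csf1r ratio overlapped between the groups with TBI, from 0.466 ± 0.107 in vehicle mice to 0.449 ± 0.0871 with PLX3397 and 0.400 ± 0.0535 with both drugs. The Pf4 to Csf1r ratio was 0.277 ± 0.0812, 0.346 ± 0.0859 and 0.0971 ± 0.0266 in the same groups. The lineage factors Spi1, Irf8, Cebpa and Runx1 fell with PLX3397, Spi1 by 1.22 and Irf8 by 1.24.

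Activated phagocyte genes had both patterns. All 11 rose with the injury, 10 fell with PLX3397 and 11 with both drugs, and Spp1 (osteopontin) and Gpnmb fell further with both drugs than with PLX3397, by 1.04 and 0.96 on the log2 scale. Spp1 was 2055 ± 551 TPM with PLX3397 and 989 ± 225 TPM with both drugs. The summed level of this list was 7107 to 12531 TPM in vehicle mice, 4491 to 7641 with PLX3397 and 3337 to 4593 TPM with both drugs, and none of its genes was at 0 throughout a group. Of the antigen presentation genes 4 of 7 tested fell with PLX3397, H2-Ab1 by 1.71 and Cd74 by 1.46. Scavenger and endocytic receptors outside the members were mixed: of 8 tested, Msr1, Cd36, Mertk and Scarb1 fell with PLX3397 and 5 fell with both drugs. Of 9 monocyte genes 6 were tested, and Ccr2 fell with PLX3397 by 0.84, whereas Ccr2, Chil3 and Ms4a4c fell with both drugs. Their summed level was 67.6 to 164 TPM in vehicle mice, 100 to 177 with PLX3397 and 107 to 161 with both drugs. Most of it was Fn1, which other cells express too, with means of 107, 121 and 121 TPM, while Ccr2 had means of 2.23, 0.800 and 0.596 TPM and Chil3 of 2.81, 2.11 and 0.971 TPM. Of 9 neutrophil genes 4 were tested. Csf3r and Mmp8, a collagenase, fell with PLX3397 by 1.09 and 0.52, and with both drugs by 1.33 and 1.54. The other genes tested passed in neither comparison. Mmp8 also fell with Anakinra, and it fell by 1.02 with both drugs against PLX3397. S100a8 was 18.9 ± 9.74 TPM with PLX3397 and 10.7 ± 4.30 TPM with both drugs. The summed neutrophil level was 22.7 to 62.0 TPM in vehicle mice, 20.9 to 60.4 TPM with PLX3397 and 17.2 to 34.0 TPM with both drugs. Camp was at 0 in all vehicle mice, and Ly6g, a defining neutrophil gene, in all mice of both groups with PLX3397. The part of monocytes, neutrophils and activated microglia in the values of Pf4, Wfdc17 and Lyz2 was not tested.

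Some markers also belong to other cells of the tissue. Of 9 platelet and megakaryocyte genes 4 were tested, and none passed with PLX3397, with both drugs or between them (limma, none with an unadjusted p below 0.05 in these comparisons). Their summed level was 24.6 to 33.7 TPM in vehicle mice, 24.4 to 29.5 with PLX3397 and 27.0 to 29.3 with both drugs, and Pf4 had means of 63.1, 30.6 and 7.55 TPM. The sum is carried by Gp1bb, with means of 23.3, 22.6 and 24.4 TPM, and Ppbp had means of 0.966, 0.748 and 0.498 TPM. The part of platelets in the Pf4 values was not tested. Platelet-defining Gp9 did not exceed 0.66 TPM in any mouse, and Itga2b was 1.53 ± 0.31 TPM in vehicle mice. Of 5 lymphatic genes 3 were tested, and none passed in a drug comparison (limma, none with an unadjusted p below 0.05). Prox1, which hippocampal neurons express as well, was 16.3 ± 0.81 TPM in sham and 15.3 ± 1.12 TPM with PLX3397. Mmrn1 and Ccl21a averaged below 1 TPM in every group. The part of lymphatic vessels in the Lyve1 values was not tested.

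Blood and connective tissue differed between the groups as well. All 5 red blood cell genes fell with PLX3397 and with both drugs, Hbb-bs by 1.90 and 1.85, and none passed after injury or between both drugs and PLX3397 (limma, none with an unadjusted p below 0.05). Their summed level was 2142 to 3195 TPM in sham mice, 1507 to 4406 in vehicle, 2485 to 3292 with Anakinra, 606 to 1072 with PLX3397 and 725 to 951 TPM with both drugs, and none was at 0. Of 9 fibroblast genes of the meninges and vessels 5 rose with PLX3397 (3.23% of all genes rose) and 5 with both drugs (7.88%), and none passed between them (limma, 1 with an unadjusted p below 0.05). Their sum was 165 to 801 TPM in vehicle mice, 875 to 1635 with Anakinra, 557 to 1254 with PLX3397 and 776 to 1330 with both drugs. Col1a1 rose by 1.61 with PLX3397 and 1.79 with both drugs. In the Anakinra mice this sum was above every vehicle mouse. Wfdc17 and Sepp1 were lower than vehicle without overlap in these mice, and the other members overlapped with vehicle. The part of blood content and of the amount of meningeal tissue in the members' values was not tested. Choroid plexus, astrocyte, neuronal, oligodendrocyte and endothelial lists had medians within 0.22 of 0 in the 2 comparisons with vehicle. Of 7 neuronal genes, however, 5 rose with both drugs and 1 with PLX3397, by at most 0.30 on the log2 scale, and their part in the members' values was not tested.

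Mice of a group varied together across several members. In vehicle, J17B had the lowest value in 8 of the 9 genes and J19B the highest in 5. With PLX3397, J02 was the highest in 6 genes and J01 the lowest in 4. Without J17B the median over the members was -1.25 with PLX3397 and -2.06 with both drugs, and without J02 it was -0.21 between both drugs and PLX3397. After the group means were removed, the median correlation over the 36 pairs of members was 0.53 across the 24 libraries, which share 5 group means. Lyz2 followed the mean of the other members most closely (r = 0.85) and Lyve1 not at all (r = -0.05). Over the levels themselves the median was 0.71, and Wfdc17 and Lyz2 (r = 0.98) were the closest pair.

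Outside the members, the genes most like them were sought by the Pearson correlation of log2(TPM + 1) with the mean standardised level of the 9 genes over the 24 libraries. Hpgds, the haematopoietic prostaglandin D synthase of macrophages and microglia, was the closest (r = 0.99), followed by Cyth4, Hmha1, Ms4a6b, Ncf1, Pld4, Arhgap30, Vsir, Rasal3 and Itgam, all with r of 0.98. These correlations rest largely on the 5 groups. After removal of the group means, Gusb led (r = 0.93), and Sparc, Myof, Plin2_2, Ctsh, Creg1, Ctsb, Ctsd, Rin2 and Adam8 had r between 0.87 and 0.91. Ctsb, Ctsd, Ctsh and Gusb encode lysosomal enzymes. Libraries of 1 group can share tissue composition, and no cause of this likeness was tested.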

How the data were processed

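Total RNA of lesional and perilesional brain was enriched for poly(A) RNA and sequenced as paired 150-cycle reads, per the labels and methods, 1 library per mouse. With CLC Genomics Workbench the authors mapped reads to GRCm38, and the deposited values are TPM without read counts, so that the depth per library is unknown and precision rests on the spread between mice, which limits firm statements for genes below about 1 TPM. The full table of 36333 genes was used. A rounded copy and a filtered copy, which carries p and F values of the authors' own tests, were not used.

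Groups follow the treatment label of each mouse. Here log2(TPM + 1) was fitted for the 17267 genes averaging 0.5 TPM or more in limma 3.58.1 (R 4.3.3, variance trend) with 1 mean per group and all 24 libraries in 1 fit. A call is a Benjamini-Hochberg adjusted p below 0.05 over all genes tested, two-sided. Calls were also run on simulated data with 200 changed genes, whose outcome is not given here and is not used as support. Members, gene lists and comparisons were chosen with earlier results of these data known. Named genes are the 9 members, in each list up to 4 genes per comparison by smallest adjusted p, every paralog and binding partner, further border macrophage genes called between both drugs and PLX3397, and the 10 genes most like the members by levels and by deviations. Cd163, Siglec1, Mertk, Scarb1, Itga2b, Gp9, S100a8, Tgfbi and other genes named outside this rule were chosen after their values were seen. Alternatives were a pseudocount of 0.1, no filter, a mean of at least 5 TPM, median ratio rescaling, no trend, only the compared groups, the call rule of the study (unadjusted p below 0.05, ratio above 2, difference above 4 TPM), an animal number block and leaving out each mouse. Promoters and positions come from RefSeq (GRCm38.p6), which matched all 9 members by symbol or synonym and 8 of them with a promoter.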

Additional observations from a re-analysis of the deposited data

Results flagged for a closer look

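Wfdc17 in Anakinra mouse J21 was 62.1 TPM, the highest of its group and far from the other 4, which lay between 41.92 and 46.92 TPM. The gap was 0.753 of the whole range of the group. It was the only such value among 45 groups of a member examined, where chance gives about 1 in 20.

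The differences in mean Cbr2 that went with Anakinra had opposite signs without and with PLX3397. The mice overlapped in both comparisons, and Anakinra against vehicle did not pass the test. The Anakinra mean lay 1.57 TPM above the vehicle mean, and every Anakinra mouse was above that mean. The mean with both drugs lay 0.777 TPM below the PLX3397 mean, and every mouse with both drugs was below that mean. On the log2 scale the gap between the 2 differences is the excess of -0.68 ± 0.22 (SE) given for Cbr2 above. None of the 17267 genes passed the limma test of that excess (smallest adjusted p = 0.153). Cbr2 was chosen by values that enter the excess, so nothing is read from that test for it. On the TPM scale the gap was not tested.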

How the results depend on the processing

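The members kept the sign of every log2 difference that was called under all alternatives, and none reversed. The number of members called with Anakinra alone (2) was 0 under the call rule of the study and 1 with no filter, no trend, only the compared groups, a pseudocount of 0.1 or the animal number as a block. Leaving out single mice gave 1 to 2, with 1 without Anakinra J05, J06, J14, J21 or J22 or vehicle J01B or J20B. The further border macrophage genes lower with PLX3397 (12) were 3 under the call rule of the study and 7 with a mean of at least 5 TPM, and those lower with both drugs (14) were 5 and 9. The last filter leaves fewer genes to test. Those lower with both drugs against PLX3397 (2) were 1 with only the compared groups and 1 with the block. The number of these genes called with Anakinra (0) ran from 0 to 1 over the mice left out, with 1 without vehicle J17B. The median over the members between both drugs and PLX3397 (-0.33) was -0.83 with a mean of at least 5 TPM, which drops Mrc1, Lyve1 and Cbr2, and the median with both drugs against vehicle (-1.94) was -2.42 with a pseudocount of 0.1. Between both drugs and PLX3397, that pseudocount moved Mrc1 from -0.24 to -0.50 and Cbr2 from -0.42 to -0.66. The cause of the other shifts was not tested. Animal numbers occur in more than 1 group (01, 17, 19 and 20). Deviations from the group means correlated at 0.173, 0.318, -0.134 and -0.066 in these pairs. Pairs of mice with different numbers were not set beside them. Whether a shared number marks a link between mice was therefore not tested. Since depth is unknown, no counting error can be given for low genes such as Lyve1.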
